A study of Mus musculus with 10 samples.

Results

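Amino acid transport across the plasma membrane was examined in 4T1 cells, a mouse mammary carcinoma line, through 10 transporter genes: Slc7a5, Slc3a2, Slc7a11, Slc7a6, Slc7a1, Slc1a4, Slc1a5, Slc38a1, Slc38a2 and Slc6a9. The genes were listed by name, and each was read from the array row that the platform annotation assigns to that symbol alone, taking the brightest row where there were several. All 10 had such a row and passed the floor on dim rows, among 17800 genes tested. The cells, 50000 at the start, had been kept for 5 days in collagen gels of 2 mg/mL (low density, LD, 5 arrays) or 3.5 mg/mL (high density, HD, 5 arrays), in RPMI medium with 10% fetal bovine serum, changed on day 3. Medium and serum were the same in both groups, no agent or genetic change is named in the labels, and all arrays come from the same cell line. The labels do not say whether the replicates are separate cultures, and p-values therefore reflect the variation among these arrays, which could be technical. Each array held the RNA of a whole gel, so that a different mix of cells and a different amount of RNA per cell cannot be told apart.

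Cells take up amino acids through solute carriers that either exchange one amino acid for another or use the sodium gradient to concentrate them. Slc3a2 encodes the heavy chain CD98, which holds light chains of the Slc7 family at the cell surface: LAT1 (Slc7a5) exchanges glutamine for leucine and other large neutral amino acids, xCT (Slc7a11) exchanges glutamate for cystine, and y+LAT2 (Slc7a6) exchanges arginine for glutamine with sodium. CAT1 (Slc7a1) carries arginine and lysine without a partner chain. Glutamine and small neutral amino acids enter through ASCT2 (Slc1a5), ASCT1 (Slc1a4), SNAT1 (Slc38a1) and SNAT2 (Slc38a2), and glycine through GlyT1 (Slc6a9). Tumour cells are known for high levels of LAT1, CD98, ASCT2 and xCT, and many of these genes are known targets of the transcription factor ATF4, which is made when amino acids run short.

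Of the 10 transporter genes, 7 rose in HD, none fell and 3 did not pass the test (limma, Benjamini-Hochberg adjusted p under 0.05 over all genes tested). In all genes tested, 31.4% rose and 19.5% fell by the same rule, 50.9% in either direction. The median log2 change of the 10 genes was 0.24, against 0.055 for all genes tested; when each array was scaled on its control rows, these medians were 0.17 and 0.13. For 6 of the 10, all HD arrays lay above all LD arrays, as they did for 21.6% of all genes, and for none did all HD arrays lie below; groups did not overlap in either direction for 36.7% of all genes. The changes were small: the largest was 1.40-fold. Tested against a change of 1.2-fold instead of none (limma treat), 3 of the 10 were called higher (Slc7a11, Slc1a5 and Slc7a1), against 3.26% of all genes. A called log2 rise of at least 0.4 was seen for 4 of the 10 (these 3 and Slc7a5) and for 4.13% of all genes. This cut was not fixed beforehand and falls between the changes of Slc7a5 (0.43) and Slc7a6 (0.32), so the 2 shares are not a test. Under control-row scaling Slc7a5 and Slc7a1 lay below it (0.31 and 0.39).

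**Figure D1:**
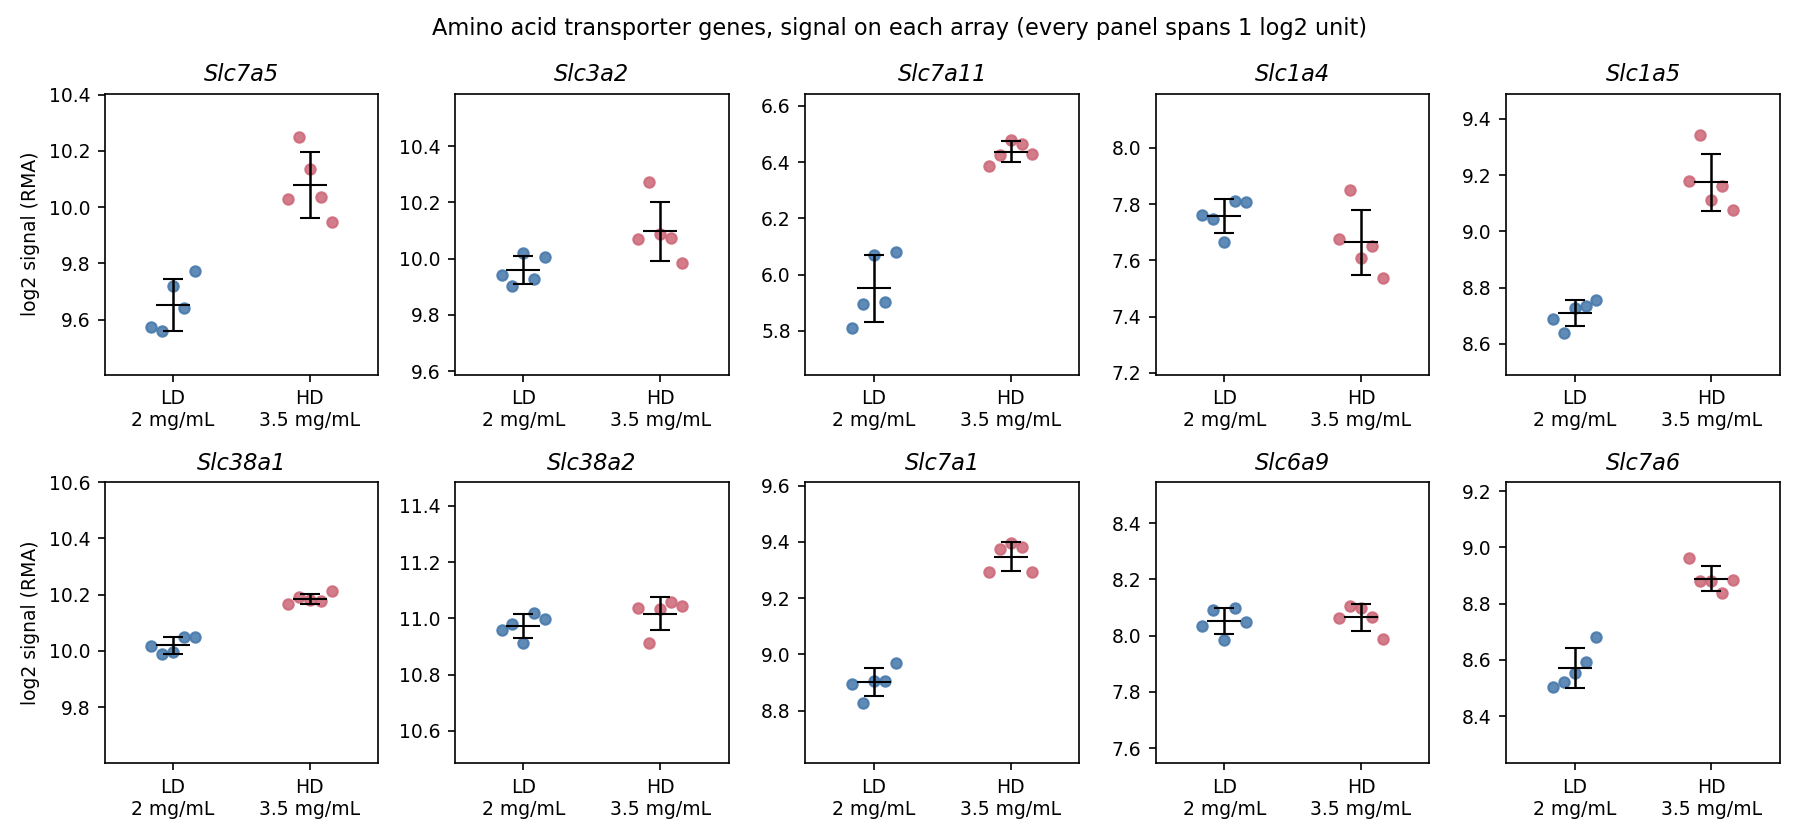
Log2 signal (RMA) of each transporter gene on the 5 LD arrays (blue) and the 5 HD arrays (red), with the mean and SD in black; every panel spans 1 log2 unit, and points of a group stand in the order of their replicate numbers, which carries no meaning. The groups separate for Slc7a5, Slc7a11, Slc7a6, Slc7a1, Slc1a5 and Slc38a1 and overlap for Slc3a2, Slc1a4, Slc38a2 and Slc6a9.

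The cystine and glutamate exchanger gene Slc7a11 had the largest change as deposited, although Slc1a5 came ahead without LD replicate 1 (0.46 against 0.45), HD replicate 3 (0.480 against 0.475) or HD replicate 5 (0.489 against 0.488). Its log2 signals were 5.81, 5.90, 6.07, 5.90 and 6.08 on LD arrays 1 to 5 and 6.39, 6.42, 6.48, 6.47 and 6.43 on HD arrays 1 to 5. The HD arrays lay close together, all above the LD arrays, while the LD arrays spread more widely (SD over 5 arrays 0.119 in LD, 0.0367 in HD). The log2 change was 0.49 ± 0.0516 (SE), 1.40-fold, with limma adjusted p = 4.7e-06, and 1.90% of all genes tested rose by more. The gene was dim: its LD mean of 5.95 lay near the median of the array's negative control rows (5.67 in LD, 5.42 in HD), which limits the fold. It stood at 0.68 when each array was scaled on its control rows and at 0.56 after quantile normalization.

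The base sequence before the annotated start of Slc7a11 is shown. Among the windows searched, it alone held the composite C/EBP-ATF element (TGATGNAA on either strand), the kind of site that ATF4 is known to bind. Windows of 250 bases before the start were taken from RefSeq (build GRCm38.p6) for 7 of the 10 genes, 11 windows in all; Slc7a5, Slc1a5 and Slc38a1 had none there. Slc3a2 and Slc7a1, which also rose, and Slc38a2, which did not pass the test, are printed beside it. Of the Slc7a1 windows, only the one that held a match to a motif searched is printed. The windows of Slc7a6, which rose too, are not printed. Lines run 5′ to 3′ on the strand of the gene and end at the base before the start. Capitals mark matches to the motifs searched: the composite element, the antioxidant response element bound by NRF2 (TGACNNNGC), the E-box (CACGTG) and the core of the hypoxia response element (ACGTG, which the E-box contains). The windows are chr3:50443614-50443863 for Slc7a11, chr19:8713898-8714147 for Slc3a2, chr5:148399905-148400154 for Slc7a1 and chr15:96699729-96699978 for Slc38a2, all on the minus strand.
Slc7a11: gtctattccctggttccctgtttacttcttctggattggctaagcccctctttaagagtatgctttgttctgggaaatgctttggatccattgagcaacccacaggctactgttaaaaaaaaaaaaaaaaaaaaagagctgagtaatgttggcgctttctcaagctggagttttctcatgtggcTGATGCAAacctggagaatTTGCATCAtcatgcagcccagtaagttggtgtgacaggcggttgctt
Slc3a2: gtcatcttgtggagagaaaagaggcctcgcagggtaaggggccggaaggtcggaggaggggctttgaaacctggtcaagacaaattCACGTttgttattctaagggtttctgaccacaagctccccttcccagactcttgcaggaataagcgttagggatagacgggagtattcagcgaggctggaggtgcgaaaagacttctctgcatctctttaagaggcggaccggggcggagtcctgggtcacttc
Slc7a1: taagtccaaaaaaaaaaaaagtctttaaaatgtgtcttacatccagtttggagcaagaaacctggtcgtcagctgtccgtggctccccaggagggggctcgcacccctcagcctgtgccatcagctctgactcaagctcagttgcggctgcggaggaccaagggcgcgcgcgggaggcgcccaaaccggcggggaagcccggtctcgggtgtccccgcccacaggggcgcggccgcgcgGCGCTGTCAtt
Slc38a2: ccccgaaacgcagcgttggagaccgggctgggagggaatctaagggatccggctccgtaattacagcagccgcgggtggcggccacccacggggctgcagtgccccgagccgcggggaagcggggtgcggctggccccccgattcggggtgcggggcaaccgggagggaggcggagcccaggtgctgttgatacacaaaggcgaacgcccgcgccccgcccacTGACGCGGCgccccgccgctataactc

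The Slc7a11 window held 2 composite elements in opposite orientation, TGATGCAA from 66 to 59 bases and TTGCATCA from 47 to 40 bases before the start. Of all 32851 promoter windows in the table, 3.45% held the motif at least once and 13 windows (0.0396%) at least 2 times. The antioxidant response element was found before a start of Slc7a1 (11 to 3 bases before it), Slc38a2 (27 to 19 bases), Slc7a6 and Slc6a9, and in 10.2% of all windows. The hypoxia core was found 164 to 160 bases before the Slc3a2 start and before both starts of Slc7a6, at one of which it overlaps the antioxidant element, and in 16.6% of all windows. No window of the 7 genes held the E-box, which 6.02% of all windows did. Genes with and without a change both held matches: the antioxidant letters stood before Slc7a1, which rose, and before Slc38a2 and Slc6a9, which did not pass the test. A match describes the letters of the window only, and the arrays do not measure binding. Bases after a start, or more than 250 bases before it, were not searched, so sites there would be missed.

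**Figure D2:**
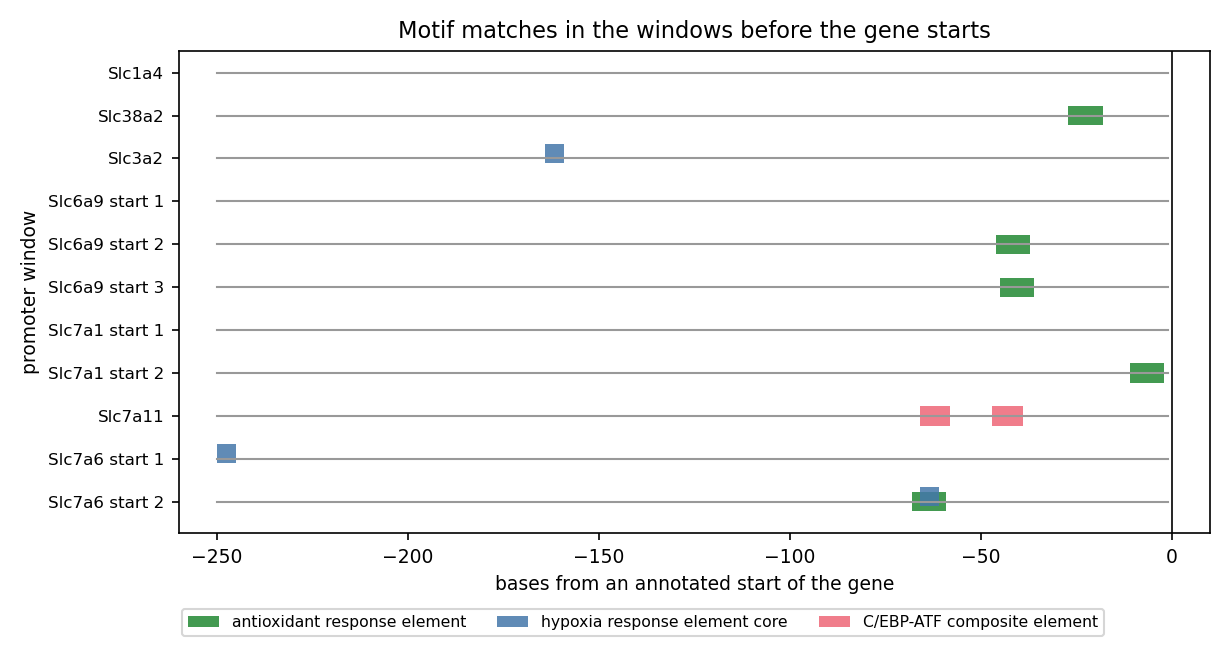
Positions of the motif matches (coloured boxes) in the 11 windows of 250 bases before annotated starts of 7 transporter genes (grey lines); the x axis is the distance in bases from the start at 0, and several starts of a gene are numbered by coordinate. The 2 composite elements lie in the Slc7a11 window and in no other.

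The light chain genes Slc7a5 and Slc7a6 also rose. Slc7a5 stood at 9.57, 9.56, 9.72, 9.64 and 9.77 on LD arrays 1 to 5 and at 10.03, 10.25, 10.13, 10.04 and 9.95 on HD arrays 1 to 5. Every HD array lay above every LD array, with HD array 2 the highest. The log2 change was 0.43 ± 0.0588 (SE), 1.34-fold (limma adjusted p = 4.4e-05). Slc7a6, the gene of the arginine and glutamine exchanger, was at 8.50, 8.52, 8.56, 8.59 and 8.68 in LD and at 8.96, 8.88, 8.88, 8.84 and 8.88 in HD. Again the groups did not overlap, and the log2 change was 0.32 ± 0.0410, 1.25-fold (limma adjusted p = 2.5e-05).

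Slc3a2, the heavy chain that these light chains share, was at 9.94, 9.90, 10.02, 9.93 and 10.00 in LD and at 10.07, 10.27, 10.09, 10.07 and 9.98 in HD. The HD values of 4 arrays lay above all LD values, and HD array 5 lay among them. The log2 change of 0.14 ± 0.0495 (SE), 1.10-fold, passed the test narrowly (limma adjusted p = 0.033). The call ended without LD replicate 1, 2 or 4 or HD replicate 2 (adjusted p = 0.065, 0.077, 0.062 and 0.059), with the replicate block (0.056), with array weights (0.051), without the floor on dim rows (0.059) and after quantile normalization (0.10). Scaled on the control rows, the change was 0.0037 (adjusted p = 0.94).

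Because both chains are read on the same arrays, the within-array difference of their log2 signals tests whether one changed more than the other, and adding a constant to an array does not move it. The level of such a difference has no meaning, since different probes are involved, and only its change between groups is used here. Slc7a5 minus Slc3a2 shifted from -0.31 ± 0.0538 (SD, n = 5) in LD to -0.018 ± 0.0373 in HD, a larger rise of Slc7a5 by 0.29. The 5 HD arrays all lay above the 5 LD arrays (two-sided exact permutation p = 0.0079, the smallest that 5 against 5 arrays can give, and 0.014 adjusted over the 7 pairs compared). Slc7a11 minus Slc3a2 shifted by 0.35 in the same way (exact permutation p = 0.0079, adjusted 0.014), also without overlap; the shift was 0.46 after quantile normalization and 0.68 under control-row scaling. Slc7a6 rose by 0.18 more than Slc3a2 (exact permutation p = 0.032, adjusted 0.044), with 4 of 5 HD arrays above all LD arrays, and by 0.29 under control-row scaling. That last call was lost without any 1 of LD replicates 1 to 4 or HD replicates 1, 3, 4 and 5, at adjusted p of 0.056 to 0.078, and not without LD replicate 5 or HD replicate 2.

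Among the light chains themselves, the changes of Slc7a5 and Slc7a6 differed by 0.11 (exact permutation p = 0.11, adjusted 0.13), with 3 of 5 HD arrays above all LD arrays, and by 0.0095 under control-row scaling. Those of Slc7a5 and Slc7a11 differed by -0.059 (exact permutation p = 0.33, also after adjustment), and the HD arrays lay on both sides of the LD arrays. The latter pair depended on the scaling: Slc7a11 rose further than Slc7a5 by 0.18 after quantile normalization and by 0.37 after control-row scaling (adjusted exact permutation p = 0.028 and 0.0093), and by 0.10 without HD replicate 2 (adjusted p = 0.028).

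**Figure D3:**
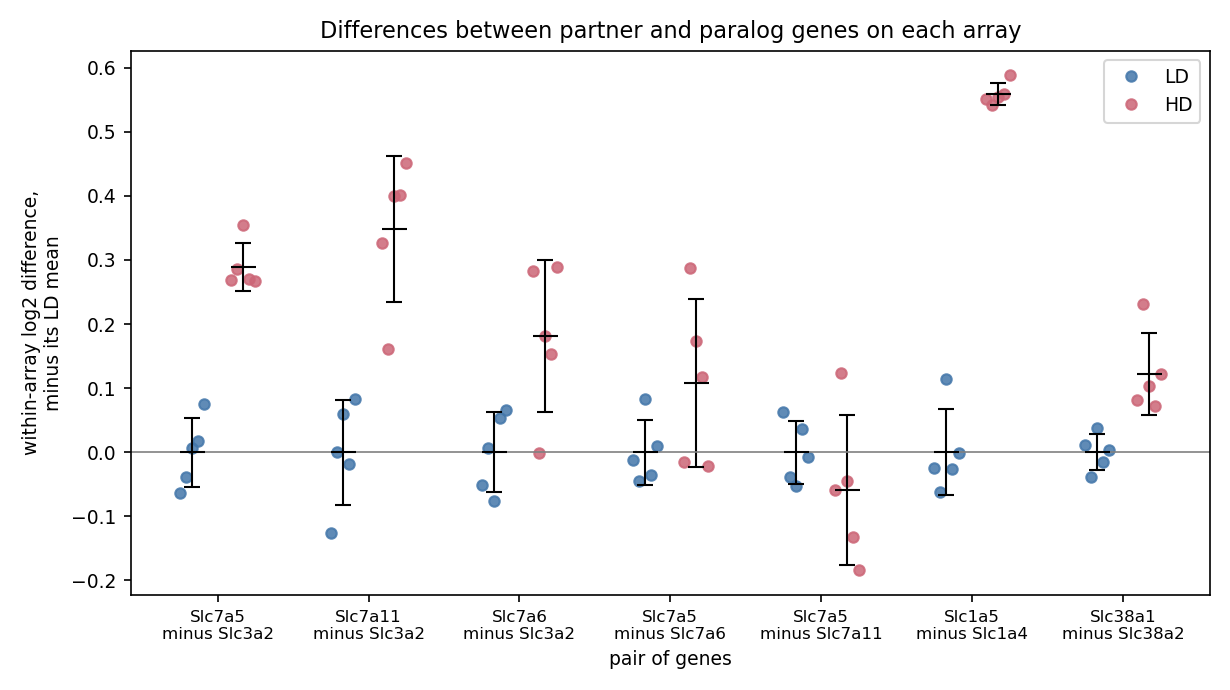
Within-array log2 difference between the genes of each of the 7 pairs, minus its mean over the LD arrays, on the 5 LD arrays (blue) and 5 HD arrays (red), with mean and SD in black. HD arrays lie wholly above LD arrays for Slc7a5 minus Slc3a2, Slc7a11 minus Slc3a2, Slc1a5 minus Slc1a4 and Slc38a1 minus Slc38a2; the HD arrays of Slc1a5 minus Slc1a4 span 1.49 to 1.54 before the LD mean of 0.95 is taken off.

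Slc7a1, the carrier of arginine and lysine, rose with the least spread relative to its change. Its signals were 8.89, 8.83, 8.90, 8.91 and 8.97 in LD and 9.29, 9.37, 9.40, 9.38 and 9.29 in HD. The lowest HD array was well above the highest LD array. The log2 change was 0.45 ± 0.0380 (SE), 1.36-fold, and its limma adjusted p of 7.2e-07 was the lowest among the 10 genes.

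The alanine, serine and cysteine transporters Slc1a5 and Slc1a4 parted. Slc1a5 (ASCT2, the main glutamine exchanger of many tumour cells) was at 8.69, 8.64, 8.73, 8.73 and 8.76 in LD and at 9.18, 9.34, 9.11, 9.16 and 9.08 in HD. All HD arrays lay above all LD arrays, with a log2 change of 0.46 ± 0.0483 (SE), 1.38-fold (limma adjusted p = 3.9e-06). Slc1a4 (ASCT1, a transporter of serine and other small neutral amino acids) was at 7.76, 7.75, 7.66, 7.81 and 7.81 in LD and at 7.68, 7.85, 7.61, 7.65 and 7.54 in HD. HD array 2 was the highest of all 10 arrays and HD array 5 the lowest, so the groups overlapped. The log2 change of Slc1a4 was -0.094 (95% interval -0.21 to 0.021, limma adjusted p = 0.15); without HD replicate 2 it was -0.14 and was called lower (adjusted p = 0.016).

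Slc1a5 minus Slc1a4 was 0.93, 0.89, 1.07, 0.92 and 0.95 on LD arrays 1 to 5 and between 1.49 and 1.54 on the HD arrays. Its SD within HD was 0.0175, the smallest of the 7 pairs there, while the genes alone had SDs of 0.102 and 0.116. Both genes were highest on HD array 2 and lowest on HD array 5 among the HD arrays. Slc1a5 changed by 0.56 more than Slc1a4 (two-sided exact permutation p = 0.0079, adjusted 0.014 over 7 pairs). It did so by 0.46 to 0.59 in the 13 alternatives run, with adjusted p of 0.0093 to 0.028.

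The sodium-coupled glutamine and alanine transporters Slc38a1 and Slc38a2 are near neighbours on chromosome 15, with no protein-coding gene between them in RefSeq. Slc38a1 (SNAT1) was at 10.02, 9.99, 10.00, 10.05 and 10.05 in LD and at 10.16, 10.19, 10.18, 10.18 and 10.21 in HD. The groups did not overlap and were tight (SD 0.0298 and 0.0184), and the log2 change of 0.17 ± 0.0316 (SE), 1.12-fold, was called (limma adjusted p = 6.5e-04). The call ended under control-row scaling (0.027, adjusted p = 0.58). Slc38a2 (SNAT2, known to be induced when amino acids are scarce) was at 10.96, 10.98, 10.91, 11.02 and 11.00 in LD and at 11.04, 10.91, 11.03, 11.06 and 11.04 in HD. HD array 2 was as low as the lowest LD array and the rest of HD lay above LD. The log2 change was 0.044 (95% interval -0.039 to 0.13, limma adjusted p = 0.35), and it turned to -0.17 with a call as lower under control-row scaling (adjusted p = 0.028). Slc38a1 changed by 0.12 more than Slc38a2 within arrays (exact permutation p = 0.0079, adjusted 0.014), and by 0.20 under control-row scaling.

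Slc6a9, the glycine transporter, was at 8.03, 8.09, 7.99, 8.10 and 8.05 in LD and at 8.06, 8.11, 8.10, 8.07 and 7.99 in HD. The groups overlapped, with 1 HD array just above the highest LD array. Its log2 change of 0.013 had a 95% interval of -0.066 to 0.092 (limma adjusted p = 0.78). Slc6a9 was the single gene of the 10 with a second row, which was dimmer, below the floor of 5.24 on every array (4.55 to 5.17), and differed by -0.054.

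**Figure D4:**
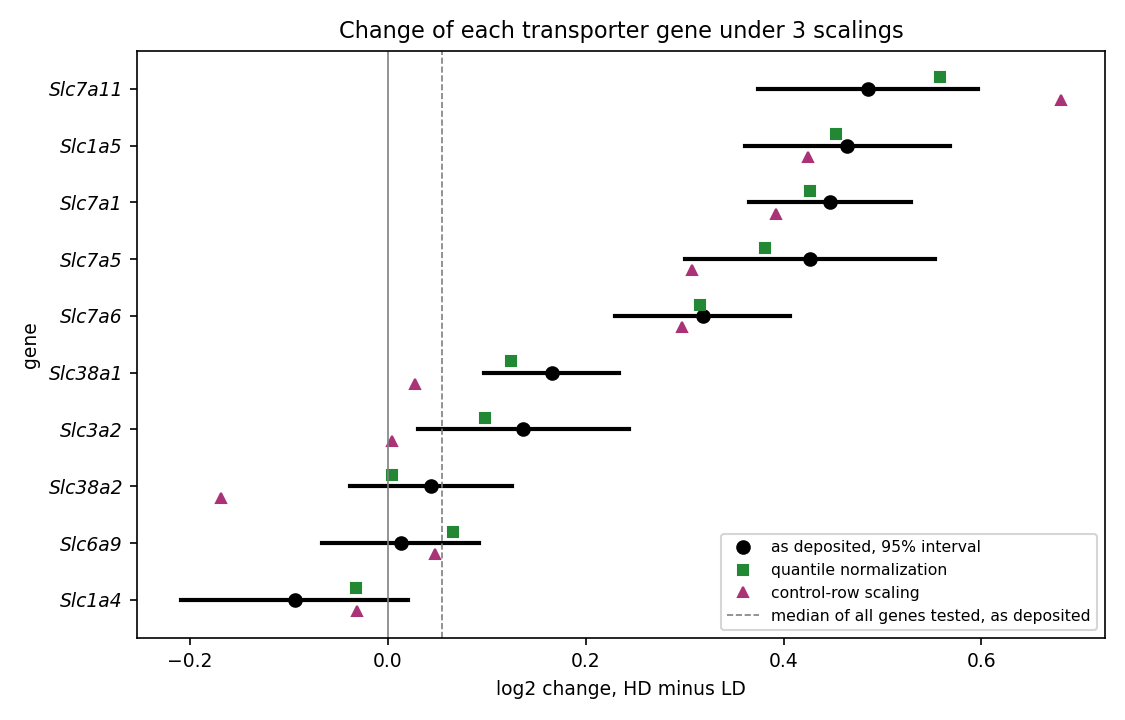
Log2 change of the 10 transporter genes, HD minus LD: as deposited with the 95% interval of the limma fit (black), after quantile normalization (green squares) and after scaling on control rows (purple triangles); the dashed line is the median of all genes tested as deposited (0.055). Slc7a11, Slc1a5, Slc7a1, Slc7a5 and Slc7a6 are at 0.298 or more in all 3 scalings, while Slc38a1, Slc3a2 and Slc38a2 move to 0.027, 0.0037 and -0.17 under control-row scaling.

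Several of the genes had the highest or lowest value of a group on the same array. Whether this differs from other genes was not tested. HD array 2 was the highest HD array for 5 genes (Slc7a5, Slc3a2, Slc1a4, Slc1a5 and Slc6a9) and the lowest for Slc38a2. HD array 5 was the lowest HD array for 6 genes, the same 5 and Slc7a1. In LD, array 5 was the highest for 5 genes (Slc7a5, Slc7a11, Slc1a5, Slc7a1 and Slc7a6), and array 2 was the lowest for 5 (Slc7a5, Slc3a2, Slc1a5, Slc38a1 and Slc7a1). Without HD replicate 2, 6 genes were called higher and Slc1a4 lower.

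Over the whole table, 61.7% of calls were higher in HD as deposited, 72.1% after quantile normalization, 69.4% after median centring and 72.1% after control-row scaling. The control rows differed between the groups, and scaling on them moved the median change of all genes to 0.13. Negative control rows had a median of 5.67 ± 0.0516 in the LD arrays and 5.42 ± 0.124 in the HD arrays (SD over 5). For positive control rows the values were 9.21 ± 0.0111 and 9.28 ± 0.0448. Background rows, which the scaling does not use, were higher in HD (3.47 ± 0.055 in LD and 3.63 ± 0.057 in HD). Among the 10 transporter genes, Slc3a2 and Slc38a1 lost their call under that scaling and Slc38a2 was called lower, leaving 5 of 10 higher and 1 lower, where 49.4% of all genes tested were higher and 19.1% lower. The cell type was checked against markers. All 10 mammary epithelial markers, Epcam and keratins among them, lay above the floor, and their summed linear signal was 15331 to 15506 in LD and 12963 to 13880 in HD; 6 of them fell, Cldn4, Krt19 and Epcam most (log2 changes -1.09, -0.76 and -0.60), and 1 rose (Krt5, 0.16, named after its value was seen), a call lost without the floor, with array weights and without LD replicate 1 or 5 or HD replicate 3 or 5. Of 7 fibroblast, 6 endothelial and 7 leukocyte markers with a row, 5, 1 and 2 lay above the floor. The fibroblast markers above it were Col1a1, Col1a2, Col3a1, Pdgfrb and Thy1, with Dcn and Lum below. Esam of the endothelial markers lay above it and Pecam1, Cdh5, Kdr, Tek and Emcn below. Of the leukocyte markers, Cd68 and Cd3e lay above it and Ptprc, Adgre1, Itgam, Lyz2 and Csf1r below. The floor (log2 5.24) itself lay below the median negative control row of both groups. Col3a1, Pdgfrb, Thy1 and Cd3e in LD, and Esam in both groups, did not exceed the median negative control row of that group. The summed signal of the leukocyte markers was 493 to 543 in LD and 357 to 419 in HD, led by Cd68, which fell by 0.74 on the log2 scale; Cd3e rose by 0.16, a call lost with array weights and without LD replicate 2 or HD replicate 3. Those of the fibroblast markers (313 to 351 and 336 to 393) and of the endothelial markers (134 to 146 and 142 to 146) overlapped between groups. Of the 5 tested fibroblast markers 2 rose, Col3a1 and Thy1 by 0.15 and 0.12 (median of the 5 0.12). All 5 were called higher after quantile normalization, median centring, control-row scaling (median 0.36) and with array weights, and 4 with the replicate block or without LD replicate 4. Only 1 was called without the floor and without LD replicate 1, 2 or 3 or HD replicate 3, 4 or 5. Their part in the transporter changes was not tested.

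The other amino acid transporters of the plasma membrane went both ways. Of 21 listed, 10 lay above the floor, of which 4 rose, 3 fell and 3 did not pass the test, with a median log2 change of 0.039. Over all genes tested 31.4% rose and 19.5% fell, with a median of 0.055, and the lists that follow are read against these values. The 3 that fell were Slc43a2 (LAT4, a carrier of branched-chain amino acids), Slc7a7 (y+LAT1, a further light chain of Slc3a2) and Slc7a3 (CAT3, a relative of Slc7a1). Slc43a2 fell from 7.33 ± 0.155 (SD, n = 5) to 6.87 ± 0.0606, 1.38-fold (limma adjusted p = 4.3e-05). Slc7a7 fell from 6.76 ± 0.0561 to 6.38 ± 0.0834, 1.30-fold (limma adjusted p = 1.2e-05), where its paralog Slc7a6 rose; the difference between these paralogs was not tested. Slc7a3 was dim, fell by 0.21, and differed by 0.038 without a call under control-row scaling. The 4 that rose (Slc16a10, Slc43a1, Slc7a10 and Slc6a17, named after their values were seen) did so by 0.12 to 0.18 with overlapping groups, and were dim, with means of 5.15 to 6.02. Slc43a1 in both groups, and Slc6a17 in LD, did not exceed the median negative control row of that group. Without LD replicate 1 or HD replicate 4, 2 of these 4 calls were left (Slc6a17 and Slc7a10 were lost). Slc6a17 also lost its call without the floor, with the trend and robust setting and without LD replicate 2, 3 or 5 or HD replicate 3 or 5. Under control-row scaling the counts were 6 higher and 3 lower and the median 0.295.

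Carriers of amino acids inside the cell had counts and a median near those of all genes. Of 20 tested carriers of lysosomes and mitochondria, 8 rose, 4 fell and 8 did not pass the test (median log2 change 0.057, and 0.11 and 0.13 after quantile normalization and control-row scaling). Ctns, which exports cystine from lysosomes, fell from 8.68 ± 0.166 (SD, n = 5) to 7.66 ± 0.0875, 2.04-fold (limma adjusted p = 1.3e-07), opposite in direction to the cystine importer gene Slc7a11. Sfxn3, of the family of mitochondrial serine transporters, was 1.40-fold lower (limma adjusted p = 3.8e-07), and Slc25a15, the mitochondrial ornithine carrier, 1.41-fold higher (1.5e-06). The other 2 that fell were the lysosomal Slc38a9, a sensor and carrier of arginine, and Slc38a7, a glutamine carrier, by 0.30 and 0.27; they were named after their values were seen.

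Genes of the amino acid response moved in both directions. Of 19 tested genes of this response (Atf4, Eif2ak4 and targets of ATF4), 10 rose, 5 fell and 4 did not pass the test. The median log2 change of the 19 was 0.10 (0.19 after quantile normalization and 0.18 under control-row scaling, where all genes had 0.090 and 0.13). Mthfd2, Phgdh and Asns, enzymes of folate, serine and asparagine metabolism, rose by 0.80, 0.63 and 0.58 (limma adjusted p = 5.5e-07, 9.6e-07 and 6.1e-06). Atf4 itself rose by 0.28 and Chac1, which degrades glutathione, by 0.40, while the stress regulators Ddit3 (CHOP) and Cebpb fell by 0.53 and 0.23. The other 3 that fell were Vldlr (a lipoprotein receptor), Stc2 (a secreted glycoprotein) and Eif2ak4 (GCN2, the kinase that senses uncharged tRNA), by 0.57, 0.47 and 0.15. Atf4, Chac1 and the 5 genes that fell were named after their values were seen.

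Enzymes that use glutamate, cysteine and glutamine were taken as a glutathione list and a glutamine and asparagine list. Of 7 tested glutathione genes, 4 rose and 1 fell (median 0.13, and 0.35 under control-row scaling). One of the 4, Cbs (0.13, limma adjusted p = 0.050, named after its value was seen), lost its call without the floor, with the trend and robust setting and without LD replicate 1, 2, 3 or 5 or HD replicate 2, 3, 4 or 5. Gclc, the catalytic subunit of the enzyme that joins glutamate to cysteine in the first step of glutathione synthesis, rose from 8.30 ± 0.0879 (SD, n = 5) to 8.82 ± 0.0321, 1.43-fold (limma adjusted p = 6.2e-07). Gss, which adds glycine in the second step, and Ggct rose by 0.23 and 0.18. Gsr, the glutathione reductase, fell by 0.10 (named after its value was seen). The Gsr call was lost after median centring (-0.078) and without LD replicate 2 or HD replicate 4 (-0.083 and -0.093). All 4 tested genes of the glutamine and asparagine list rose (median 0.31), Asns, Gpt2 and Got2 by 0.58, 0.33 and 0.29; Got2, a mitochondrial transaminase, stood at 0.026 without a call under control-row scaling. Of 19 tested genes of amino acid sensing by mTORC1, 5 rose, 3 fell and 11 did not pass the test (median 0.030), no larger a share in either direction than of all genes. The higher count was 3 without LD replicate 1. The median was 0.055 after quantile normalization and 0.048 under control-row scaling. Lamtor5, a part of the lysosomal Ragulator complex, rose by 0.29, and Nprl2 and Sesn3, inhibitors of this signal, fell by 0.24 and 0.22. Of the other inhibitors called, Castor2 rose by 0.22 and Sesn1 fell by 0.16, both named after their values were seen.

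**Figure D5:**
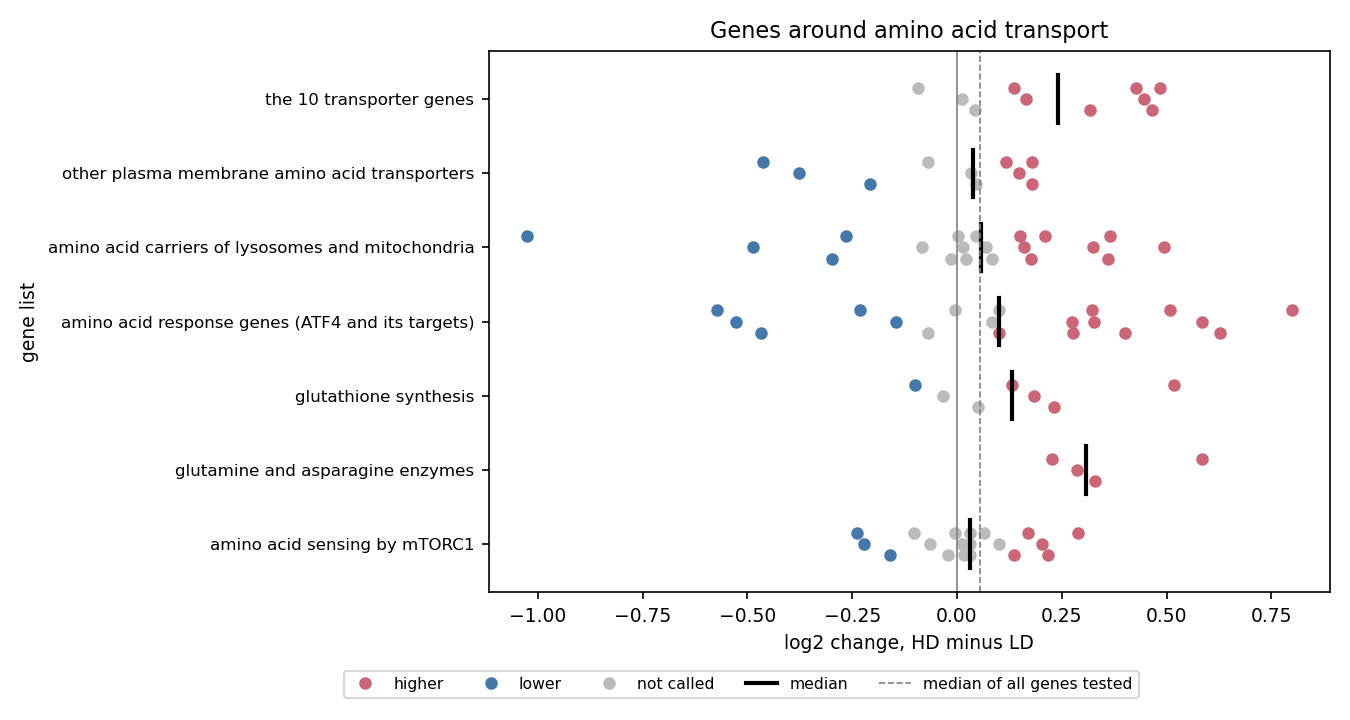
Log2 change (HD minus LD) of each tested gene in the 10 transporter genes and 6 lists around amino acid transport: red points were called higher, blue points lower and grey points did not pass the test (limma adjusted p under 0.05); black bars are list medians and the dashed line the median of all genes tested. The 10 transporter genes have a median of 0.24 and no lower call, and Ctns lies farthest to the left at -1.03.

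The genes whose pattern over the 10 arrays lay nearest to that of Slc7a11, by the root mean square difference of log2 values centred on each gene's mean, were Dusp14, Riox2, Clspn, Jagn1 and Rangap1. Their differences from Slc7a11 were 0.0487 to 0.0534, where the median over all genes tested was 0.240. Their own log2 changes, 0.45 to 0.51, follow from this choice. None of them is an amino acid transporter.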

How the data were processed

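RNA of 10 samples was hybridised to Affymetrix MTA 1.0 arrays. The authors deposited log2 signals from RMA, as named in the submitters' processing notes. Software version, annotation and genome build: not given in the sources used here. The log2 scale was inferred from the range of values. RMA signals tend to understate folds, most so for dim genes. No scan date or detection call was used here, so batches were not looked for.

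Each gene was represented by its brightest single-symbol row on average (30604 rows, 30142 symbols, 827 updated by gene ID through RefSeq), and was tested if that mean exceeded the median of all row means (log2 5.24). This left 17800 genes. The groups were contrasted with lmFit and eBayes (limma 3.58.1, R 4.3.3), two-sided, with Benjamini-Hochberg adjustment over those genes. Changes are HD minus LD; errors are SDs of the 5 arrays or moderated SEs. Differences between genes were compared by exact permutation over arrays. Control-row scaling maps the medians of the negative (5222) and positive (1324) control rows of each array linearly onto their means over arrays. The fit was also run on simulated data with independent noise and changes in few genes. Many more genes were called here, so that run does not test these calls. Alternatives were a replicate block, quantile, median and control-row scaling, other floors, the mean of a gene's rows, other limma settings and each array left out. The precision is limited by the number of arrays. The members, lists, motifs and alternatives were chosen with earlier results of these data known. All 10 transporter genes were named, and from each other list the 3 called genes with the largest change; other names are marked as chosen after their values were seen. Listed genes without a single-symbol row were not analysed here.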

Additional observations from a re-analysis of the deposited data

Results flagged for a closer look

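In 34 groups of 5 arrays (the 10 transporter genes and 7 pairs in LD and HD), 2 had an array far from the others; chance flags about 1 in 20 groups. Slc38a2 stood at 10.91 on HD replicate 2, against 11.03 to 11.06 on the other HD arrays. The difference of Slc7a5 and Slc3a2 stood at 0.048 on HD replicate 3, against -0.040 to -0.022 on the others.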

How the results depend on the processing

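Of 199 values for the change of a transporter gene under the alternatives, 181 kept their direction and side of the threshold. Slc7a11, Slc1a5 and Slc7a1 were called higher in each alternative in which they were tested, and Slc7a5 and Slc7a6 in each but the test against a 1.2-fold change (adjusted p = 0.10 and 0.81), where Slc38a1 and Slc3a2 also lost their call; the filter at the 75th percentile of row means (log2 6.96) left Slc7a11 untested. The replicate numbers 1 to 5 occur in both groups. Over genes, the deviations of arrays with one number from their own group's mean correlated at 0.19, -0.091, -0.036, 0.22 and -0.025, and the fit did not pair them. With the replicate block, 9058 genes and 6 transporter genes were called, against 9056 and 7 without it; the call lost was Slc3a2. Against a 1.2-fold change, 1152 genes and 3 transporter genes were called, by construction of that test. Leaving out each array gave 7767 to 9050 genes and 6 to 7 transporter genes. Reversals were seen for Slc38a2 under control-row scaling (-0.17, the cause was not tested) and for Slc6a9 with the mean of its rows (-0.020), and over the arrays left out Slc6a9 ranged from -0.0032 to 0.032. The difference between Slc7a5 and Slc7a11 was called after quantile normalization (-0.18) and control-row scaling (-0.37), and ranged from -0.10 to -0.028 with an array left out; the cause was not tested. That between Slc7a6 and Slc3a2 ranged from 0.15 to 0.23 with an array left out, where fewer arrays are tested. The replicate block was not run for the differences between genes, because flipping signs within 5 pairs cannot reach the threshold. Slc7a11 and the dim transporters lie near the negative control rows, which limits their folds.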
